A study of Homo sapiens with 6 samples.

Results

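CASKIN2, SEZ6L2, CALHM2 and CLDN7 are genes best known from neural and epithelial tissue that had more mRNA in IKZF1-ko than in NT control cells of the leukemia line OCI-AML2. They were chosen by that difference from earlier results of these same libraries, out of 58233 gene identifiers, with no stated threshold. The choice drew on all 6 libraries and also on 4 of them alone. The levels of the 4 genes are therefore described here without a test. All 4 of 4 passed the filter on low counts. CASKIN2 and CLDN7 passed it through the IKZF1-ko libraries, since each had 1 NT control library with only 4 and 2 counts. OCI-AML2 is an established human cell line from acute myeloid leukemia. The series compared 3 IKZF1-ko libraries, made after CRISPR was aimed at IKZF1, with 3 NT control libraries, made with a non-targeting guide. The targeted gene codes for the blood transcription factor Ikaros, and the comparison asks which genes change when it is lost. Polyadenylated RNA was counted per gene, and neither group has a drug treatment in its labels. The design text speaks of 3 lines per group and the extraction protocol of triplicates, so whether replicates are separate clones, cultures or extractions is unclear and p-values measure only the spread between these libraries.

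The working name of the group of genes holds for some of them only. CASKIN2 encodes a scaffold protein with ankyrin repeats and SAM domains, a relative of CASKIN1, which joins the synaptic protein CASK to receptor phosphatases of the LAR family. SEZ6L2 encodes a membrane protein of the SEZ6 family, known from neurons, with sushi and CUB domains like those of complement regulators. CALHM2 encodes a large-pore channel of the plasma membrane that lets ATP out of cells and is known from astrocytes and microglia. CLDN7 encodes a claudin, a membrane protein of epithelial tight junctions that also binds the adhesion protein EPCAM. None of the 4 is a muscle gene, so the genes are called here by their symbols.

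Libraries held 11300519 to 18214328 counts, with a count for 17640 to 18860 genes each. The first principal component of log2 CPM (counts scaled to library size, with TMM factors) held 67.6% of the variance. On it NT control 2 and IKZF1-ko 1 stood apart (39.5 and 50.1) from the other 4 libraries (-29.1 to -16.3). The comparison is therefore given on all 6 libraries by group alone, on all 6 with a term for these library sets, and on the 4 libraries alone. Every IKZF1-ko library had more counts than every NT control library, over all 6 libraries and in the 4, and the part of depth in the values was not tested. IKZF1 itself was at 331, 292 and 334 CPM in NT control and at 421, 426 and 436 CPM in the libraries labelled IKZF1-ko. Its mRNA was thus not lower there, and gene counts do not show an edit or the protein. Of 20 genes that mark myeloid leukemia cells, all 20 had a count, with a summed level of 3350 to 5140 CPM in NT control and 3740 to 5380 CPM in IKZF1-ko.

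CASKIN2 had the largest ratio of group means of the 4 genes. It had 20, 4 and 16 counts in NT control 1, 2 and 3 and 68, 182 and 170 counts in IKZF1-ko 1, 2 and 3, or 1.70, 0.273 and 1.40 CPM against 4.54, 9.94 and 10 CPM. In each group the library that stands apart was the lowest, and the groups did not overlap. NT control 2 was at 0.176 times the mean of the other NT control libraries, and IKZF1-ko 1 at 0.455 times the mean of the other IKZF1-ko libraries. The 4 counts of NT control 2 allow 0.0744 to 0.699 CPM (95% exact Poisson interval, which here and below covers counting error only). The group means were 1.12 ± 0.751 and 8.18 ± 3.15 CPM (SD, n = 3 each), a ratio of 7.28 and a fitted log2 fold change of 2.89. Because these are bulk samples, more cells with the mRNA and more mRNA per cell cannot be told apart.

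SEZ6L2 was the most abundant of the 4. It was at 12.7, 13.2 and 11.9 CPM in NT control (150, 193 and 136 counts) and at 48.2, 38.1 and 36.5 CPM in IKZF1-ko (721, 698 and 617 counts). The NT control libraries had a coefficient of variation of 5.14%, while IKZF1-ko 1 was above the other IKZF1-ko libraries. The lowest IKZF1-ko library was 2.77 times the highest NT control library. The means were 12.6 ± 0.648 and 40.9 ± 6.34 CPM (SD, n = 3 each), a ratio of 3.25 and a log2 fold change of 1.70.

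CALHM2 was the most even of the 4 in IKZF1-ko, with a coefficient of variation of 8.30% there and 7.49% in NT control. It was at 2.12, 2.46 and 2.36 CPM in NT control (25, 36 and 27 counts) and at 9.15, 9.77 and 8.28 CPM in IKZF1-ko (137, 179 and 140 counts). The groups were far apart for this gene, with the lowest IKZF1-ko library at 3.37 times the highest NT control library. The means of 2.31 ± 0.173 and 9.07 ± 0.753 CPM (SD, n = 3 each) gave a ratio of 3.92 and a log2 fold change of 1.97.

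CLDN7 had the fewest counts of the 4 genes and is the least certain. It had 14, 19 and 2 counts in NT control and 46, 34 and 58 counts in IKZF1-ko, or 1.19, 1.30 and 0.175 CPM against 3.07, 1.86 and 3.43 CPM. NT control 3 was far below the other NT control libraries, and its 2 counts allow 0.0212 to 0.632 CPM, below the 0.649 to 1.99 CPM of NT control 1. The groups did not overlap, but the lowest IKZF1-ko library was only 1.43 times the highest NT control library. The means were 0.887 ± 0.619 and 2.79 ± 0.825 CPM (SD, n = 3 each), a ratio of 3.14 and a log2 fold change of 1.61.

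**Figure D1:**
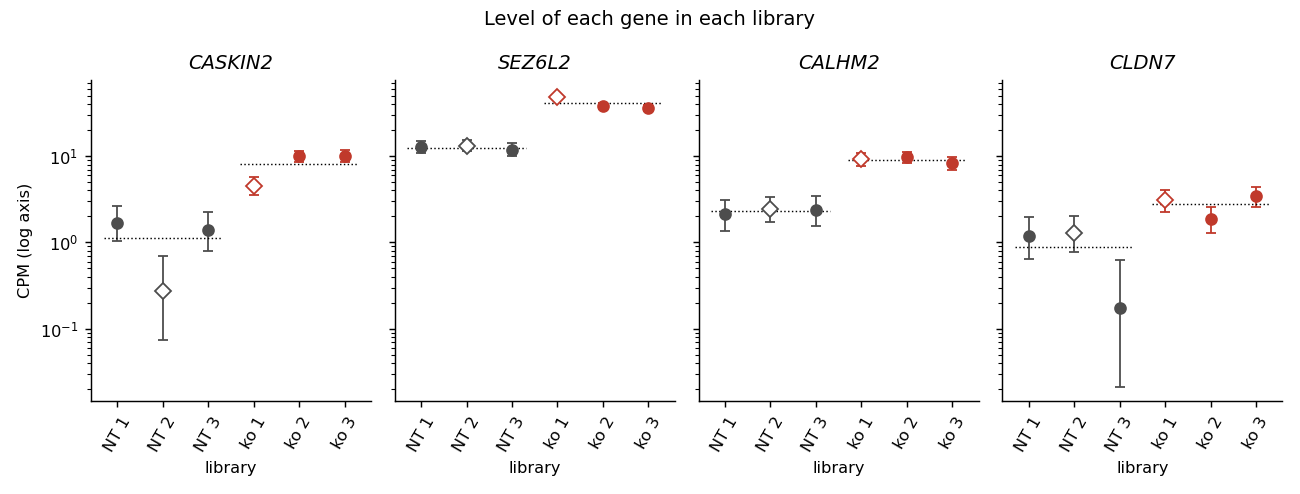
CPM (log axis) of CASKIN2, SEZ6L2, CALHM2 and CLDN7 in each library, with NT control in grey, IKZF1-ko in red, and open diamonds for the library of each group that stands apart. Bars are 95% exact Poisson intervals of the counts and dotted lines the group means; every IKZF1-ko point lies above every NT control point, by 1.43 times for CLDN7 at the closest and 3.37 times for CALHM2 at the widest.

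IKZF1-ko libraries lay wholly above NT control libraries for 5.28% of the 13028 tested genes, a share that holds the 4 genes because of how they were chosen. By fitted fold change on group alone they ranked 6 (CASKIN2), 17 (CALHM2), 27 (SEZ6L2) and 33 (CLDN7) among the tested genes, of which 120 had a log2 fold change of at least 1. Per exon length, which allows levels of different genes to be compared, the order in IKZF1-ko was SEZ6L2 at 9.96 ± 1.54 RPKM (CPM per kilobase of exon), CALHM2 at 2.92 ± 0.242, CASKIN2 at 1.40 ± 0.540 and CLDN7 at 1.12 ± 0.331 RPKM. The last pair differed by less than their spread. In NT control the order was SEZ6L2 at 3.07 ± 0.158, CALHM2 at 0.744 ± 0.0557, CLDN7 at 0.356 ± 0.248 and CASKIN2 at 0.193 ± 0.129 RPKM, and again the last pair did not differ beyond their spread. Among tested genes SEZ6L2 stood at percentile 36.2 in NT control and 66.6 in IKZF1-ko. The other 3 genes stayed in the lower part of the range, at percentile 3.8 and 21.0 for CASKIN2, 14 and 34.5 for CALHM2, and 6.56 and 17.9 for CLDN7.

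The difference was then set out by library set. In the 4 libraries alone the ratio of means was 6.45 for CASKIN2, 3.03 for SEZ6L2, 4.03 for CALHM2 and 3.88 for CLDN7, with log2 fold changes of 2.68, 1.60, 2.01 and 1.92. The pair that stands apart, IKZF1-ko 1 over NT control 2, is 1 library per group and gave ratios of 16.6 for CASKIN2 (95% counting interval 6.21 to 62.8), 3.66 for SEZ6L2 (3.12 to 4.31), 3.73 for CALHM2 (2.56 to 5.54) and 2.37 for CLDN7 (1.36 to 4.28). All 4 genes were higher in IKZF1-ko in both sets. This is no separate check, because the genes were chosen on all libraries together and on the 4 libraries alone. SEZ6L2 and CALHM2 had like ratios in both, and the interval of CASKIN2 is wide because NT control 2 had 4 counts. With the library-set term the log2 fold changes were 2.90, 1.70, 1.97 and 1.62, in the same order. For CLDN7 the value in the 4 libraries rests on NT control 3: the log2 fold change was 1.13 without that library and 3.84 without NT control 1.

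**Figure D2:**
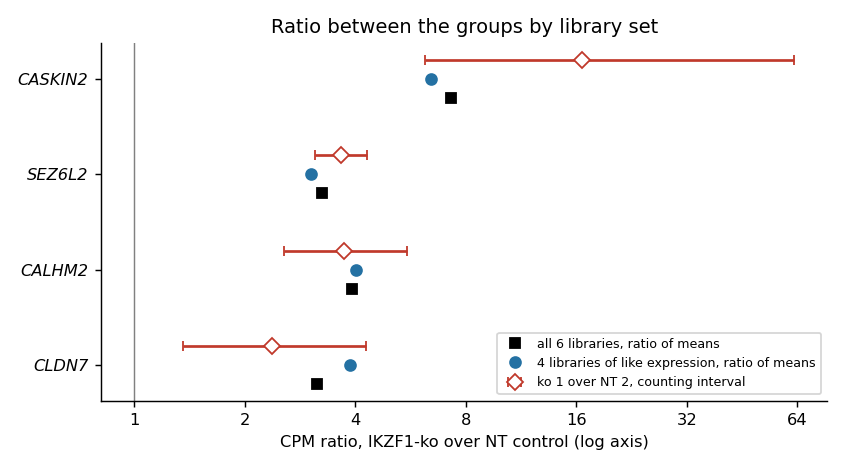
Ratio of CPM, IKZF1-ko over NT control (log axis), for CASKIN2, SEZ6L2, CALHM2 and CLDN7, as the ratio of means over all 6 libraries (black squares), over the 4 libraries of like expression (blue circles) and for IKZF1-ko 1 over NT control 2 (open diamonds with 95% counting intervals). All points lie above 1, and SEZ6L2 stays between 3.03 and 3.66 while CASKIN2 runs from 6.45 to 16.6.

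The 4 genes differed in how they varied inside the groups. Over the 6 libraries the Pearson correlation of log2 CPM was highest for SEZ6L2 with CALHM2 (0.99) and lowest for CASKIN2 with CLDN7 (0.54), values that contain the group difference by which the genes were chosen. After the group means were taken out, CASKIN2 ran against SEZ6L2 (-0.64), CALHM2 (-0.50) and CLDN7 (-0.42), and CALHM2 against CLDN7 (-0.36), while SEZ6L2 ran with CLDN7 (0.36) and CALHM2 (0.21). These are descriptions over 6 shared libraries. The genes whose profile was most like that of CASKIN2 were CTNNA1, which encodes the junction protein alpha-catenin (r = 0.9971, 65.9 ± 7.41 CPM in NT control and 90.4 ± 6.00 in IKZF1-ko), ANGPT1, a ligand of the endothelial receptor TEK (0.9971, 4.18 ± 0.962 and 8.0 ± 1.38 CPM), and the Wnt secretion gene WLS (0.9964, 3.08 ± 1.09 and 10.1 ± 2.30 CPM). For SEZ6L2 they were the phosphatase gene PTPN12 (0.9945), the septin gene SEPTIN8 (0.9925) and the phosphatase gene CTDSP2 (0.9923). For CALHM2 they were the calcium channel subunit gene CACNA2D3 (0.9981), the ciliary rootlet gene CROCC (0.9934) and NUDT3 (0.9931). CLDN7 was nearest to ZNF497 (0.988, 1.31 ± 0.303 CPM in NT control and 1.74 ± 0.189 in IKZF1-ko) and RPE (0.9853, 80.0 ± 2.18 and 82.9 ± 0.567 CPM). Next was SPRY4, a feedback inhibitor of receptor tyrosine kinase signalling (0.9745, 2.83 ± 0.945 and 4.51 ± 0.501 CPM). The profile of CLDN7 includes NT control 3 with only 2 counts. A high correlation does not mean a like size of difference. CACNA2D3, nearest to CALHM2, was at 15.6 ± 0.153 and 19.3 ± 0.37 CPM, and PTPN12, nearest to SEZ6L2, at 65.7 ± 1.76 and 86.5 ± 4.01 CPM. A correlation of at least 0.95 was reached by 66 genes for CASKIN2, 78 for SEZ6L2, 59 for CALHM2 and 10 for CLDN7, of 11922 genes compared. The mean profile of the 4 genes was most like those of CROCC (0.9936), the histamine-degrading enzyme gene HNMT (0.9931), TCEAL1 (0.9912), NUDT3 (0.9906) and the receptor gene ACVRL1 (0.9904). ACVRL1 had mean levels of 5.96 ± 1.15 CPM (NT control) and 14.6 ± 0.694 CPM (IKZF1-ko).

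All 4 genes lie on the reverse strand of GRCh38. CASKIN2 (ENSG00000177303) is at chr17:75500261-75515583 and SEZ6L2 (ENSG00000174938) at chr16:29871159-29899547, and neither shares exon bases with another annotated gene. CALHM2 (ENSG00000138172) is at chr10:103446786-103452402. Of its 3108 exon bases, 605 (19.5%) are shared with the opposite-strand gene AL139339.2, which had 0 to 4 counts per library. CLDN7 (ENSG00000181885) is at chr17:7259903-7263983. Of its 2492 exon bases, 269 (10.8%) are shared with AC003688.1 on the same strand, listed at 0 counts in all 6 libraries, and 38 (1.52%) with ELP5 on the opposite strand, which had 724 to 1180 counts. The values of CALHM2 and CLDN7 are uncertain to that extent, as the way shared reads were counted is not given in the sources used here.

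Promoter sequence is shown because the targeted gene encodes a DNA-binding protein whose motif has the core GGGAA. Its binding at the 4 genes was not tested. RefSeq promoters on GRCh38.p14 were found for 3 of the 4 genes, CASKIN2, CALHM2 and CLDN7. The bases before the annotated start and outside exons follow, 5′ to 3′ on the strand of the gene, with GGGAA or its reverse complement TTCCC in capitals. They are at chr17:75509891-75510140 for CASKIN2, chr10:103452403-103452620 for CALHM2 and chr17:7263214-7263463 for CLDN7, all on the reverse strand.
CASKIN2: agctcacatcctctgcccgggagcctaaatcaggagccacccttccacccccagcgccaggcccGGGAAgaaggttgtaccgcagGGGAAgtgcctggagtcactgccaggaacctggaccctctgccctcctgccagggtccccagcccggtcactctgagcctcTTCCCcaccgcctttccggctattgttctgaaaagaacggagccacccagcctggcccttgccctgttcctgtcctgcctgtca
CALHM2: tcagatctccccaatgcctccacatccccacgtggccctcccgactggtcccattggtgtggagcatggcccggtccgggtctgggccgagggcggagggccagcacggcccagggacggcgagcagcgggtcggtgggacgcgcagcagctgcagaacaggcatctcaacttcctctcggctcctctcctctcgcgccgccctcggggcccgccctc
CLDN7: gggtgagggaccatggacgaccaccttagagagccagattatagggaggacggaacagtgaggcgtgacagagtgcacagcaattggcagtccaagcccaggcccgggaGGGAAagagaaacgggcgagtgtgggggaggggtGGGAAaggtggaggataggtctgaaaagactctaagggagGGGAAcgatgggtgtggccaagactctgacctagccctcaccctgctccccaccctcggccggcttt
CASKIN2 has 3 matches in its 250 bases, 1 of them on the opposite strand, and this RefSeq start lies 5693 bases downstream of the outermost start in GENCODE. CLDN7 also has 3, all on the strand of the gene, and 1 of them is part of the longer form TGGGAA. CALHM2 has 0 in 250 bases, which include 32 exon bases not shown. A second start of CLDN7, whose 250 bases lie within an exon and are not shown, also has 0. Among 35116 promoters of 250 bases, 59.0% hold GGGAA on either strand, 7.27% hold it at least 3 times and 20.8% hold TGGGAA. The GC share was 64% for CASKIN2, 70.4% for CALHM2 and 60.4% for the first start of CLDN7, against a median of 58.0%, and the CpG counts were 8, 21 and 9 against a median of 11. A match of letters is a description of the window and not a binding site.

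Related genes were taken from lists on the functions and tissues of the 4 genes. The lists were written with earlier results of these data known, so the tests of their members are no independent support for a direction. On group alone edgeR's quasi-likelihood test called 0 of 13028 genes at a Benjamini-Hochberg adjusted p under 0.05 (0%), and 456 had an unadjusted p under 0.05. Those 456 are a smaller share than a threshold of 0.05 would pass on average with no difference between the groups. DESeq2 called 71 genes and limma-voom 1 on the same design. With the library-set term 6.93% of tested genes rose and 6.62% fell, and in the 4 libraries 7.64% rose and 7.10% fell. The adjusted p-values that follow are from edgeR with the library-set term, which takes the sets as known. "Rose" and "fell" refer to that fit unless the 4 libraries are named, and none of these genes passed on group alone. The median log2 fold change over all tested genes was 0.00 in both fits.

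In the list of CASK scaffold genes and LAR phosphatases with their partners, genes rose and none fell. Whether their products bind CASKIN2 was not tested. Of 25 listed CASK, liprin, LAR phosphatase and syndecan genes 17 were tested, and 5 rose and 0 fell (7 and 0 in the 4 libraries). Of all tested genes 6.93% rose and 6.62% fell (7.64% and 7.10% in the 4 libraries). The median log2 fold change of the list was 0.18 (0.30 in the 4 libraries). PPFIBP1, a liprin gene, was at 17.7, 16.7 and 19.1 CPM in NT control and 35.6, 31.1 and 28.8 CPM in IKZF1-ko, with no overlap between the groups (log2 fold change 0.84, SE 0.093, adjusted p = 1.28e-05). SDC2, which encodes a heparan sulfate proteoglycan of the cell surface, rose from 127 ± 10.1 to 163 ± 5.41 CPM (adjusted p = 1.11e-04). The Abl interactor gene ABI2 (log2 fold change 0.33) and the adaptor gene APBA1 (0.64) also rose. The 5th gene that rose, the liprin gene PPFIA4, overlapped between the groups, with 44.5 CPM in NT control 2 and 16.5 to 55.1 CPM in IKZF1-ko. The paralog CASKIN1 had 3, 5 and 1 counts in NT control and 6, 14 and 10 counts in IKZF1-ko, too few to be tested. PTPRF, which encodes LAR itself, had 1, 0 and 1 counts in NT control and 0 in all IKZF1-ko libraries. CASK was tested and did not pass (12.5 ± 2.34 and 14 ± 1.51 CPM, adjusted p = 0.364).

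Genes tied to SEZ6L2 moved in both directions. Of 20 listed genes of the SEZ6 family, its proteases and complement regulation 10 were tested, and 2 rose and 3 fell (1 and 3 in the 4 libraries). Of all tested genes 6.93% rose and 6.62% fell (7.64% and 7.10% in the 4 libraries). The median of the list was -0.06. BACE1, the beta-secretase that cleaves SEZ6 family proteins, was at 30.1, 39.2 and 33.0 CPM in NT control and 90.5, 76.8 and 73.0 CPM in IKZF1-ko. Its groups did not overlap (log2 fold change 1.23, SE 0.063, adjusted p = 1.47e-09, and 1.25 in the 4 libraries), and 3111 of its exon bases are shared with the opposite strand. The complement component gene C3 rose from 3.10 ± 2.23 to 4.74 ± 2.50 CPM with overlapping groups (adjusted p = 0.0489), and did not pass in the 4 libraries (adjusted p = 0.0832). CR1, which encodes a complement receptor, was at 1.44, 2.18 and 2.45 CPM in NT control and 0.468, 0.655 and 0.828 CPM in IKZF1-ko. It fell by 1.62 on the log2 scale (SE 0.34, adjusted p = 0.00445). The sushi domain gene SUSD1 (-0.33) and CTSD (-0.34), the gene of cathepsin D, fell as well, though CTSD did not pass in the 4 libraries (adjusted p = 0.0987). The groups overlapped for SUSD1 (44.0 CPM in NT control 2, below the 48.1 CPM of IKZF1-ko 2). Of the paralogs, SEZ6 was listed at 0 in all 6 libraries. SEZ6L had 5, 10 and 7 counts in NT control and 15, 15 and 13 counts in IKZF1-ko, and did not pass (log2 fold change 0.59, adjusted p = 0.367).

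Genes of the list around CALHM2 moved in both directions. Of 30 listed CALHM, pannexin, LRRC8, connexin and purinergic receptor genes 14 were tested, 2 rose and 1 fell (3 and 2 in the 4 libraries), beside 6.93% and 6.62% of all tested genes (7.64% and 7.10% in the 4 libraries), and the median was -0.03. P2RX7, an ATP-gated ion channel gene, rose although its groups overlapped. It was at 38 and 35.3 CPM in NT control 1 and 3, 57.2 and 54.5 CPM in IKZF1-ko 2 and 3, and 92.4 and 112 CPM in the libraries that stand apart, NT control 2 and IKZF1-ko 1 (log2 fold change 0.47, adjusted p = 2.57e-04). The UDP receptor gene P2RY6 rose from 13.5 ± 0.702 to 17.5 ± 1.5 CPM (adjusted p = 0.0158), and the ATP and UTP receptor gene P2RY2 fell from 70.4 ± 10.4 to 53.7 ± 1.57 CPM (adjusted p = 0.00253). The volume-regulated channel subunit genes LRRC8D (0.28, adjusted p = 0.0015) and LRRC8B (-0.37, adjusted p = 0.019) passed in the 4 libraries but not with the library-set term, and the difference between the fits was not tested. CALHM2 was the only CALHM gene with more than 1 count: CALHM1, CALHM3, CALHM4 and CALHM5 were listed at 0 in all libraries and CALHM6 had 1 count in IKZF1-ko 1.

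Of 36 listed claudin and tight junction genes 10 were tested, 4 rose and 0 fell (3 and 0 in the 4 libraries), and the median was 0.30. Of all tested genes 6.93% rose and 6.62% fell (7.64% and 7.10% in the 4 libraries). OCLN, the gene of the tight junction membrane protein occludin, was at 1.10, 2.46 and 1.31 CPM in NT control and 5.35, 2.73 and 3.67 CPM in IKZF1-ko (log2 fold change 1.27, SE 0.23, adjusted p = 0.00147). The groups did not overlap, and the levels were low in every library, as for CLDN7. The claudin genes CLDN12 (15.4 ± 2.52 to 20.8 ± 5.12 CPM with overlapping groups, adjusted p = 0.00712) and CLDN15 (adjusted p = 0.034) rose, and CLDN15 did not pass in the 4 libraries (adjusted p = 0.199). F11R, which encodes the junctional adhesion molecule JAM-A of blood cells and epithelia, rose by 0.29 on the log2 scale with overlapping groups. EPCAM, the partner of CLDN7, was listed at 0 in all 6 libraries. So was TJP1, the gene of the scaffold ZO-1, named after its values were seen. A count of 0 allows up to 0.164 to 0.262 CPM, taking 3 counts as the limit.

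**Figure D3:**
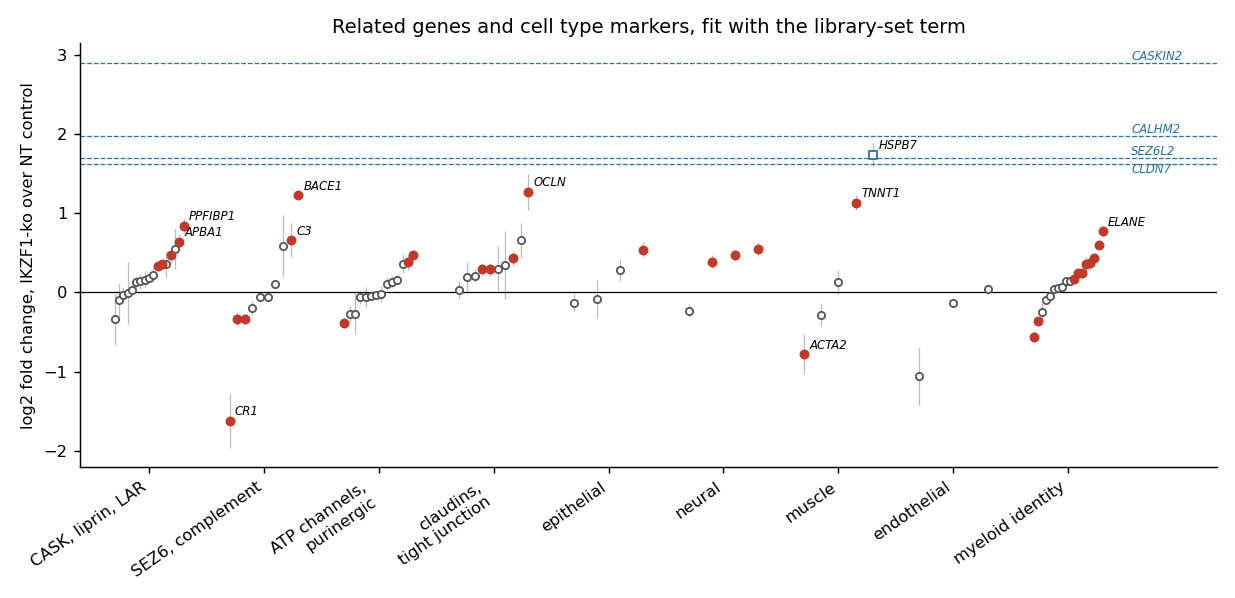
Log2 fold change, IKZF1-ko over NT control, from the fit with the library-set term, for each tested gene of 9 lists, ordered by value within a list. Red points passed an edgeR adjusted p of 0.05, the blue square is HSPB7, listed with its rise known and given without a test, grey bars are standard errors and blue dashed lines mark CASKIN2, CALHM2, SEZ6L2 and CLDN7; among the other listed genes OCLN (1.27), BACE1 (1.23) and TNNT1 (1.13) are highest.

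Many markers of the tissues in which the 4 genes are best known had no counts. Those named at 0 were picked after their values were seen, and other markers were expressed. Of all tested genes 6.93% rose and 6.62% fell. Of 25 epithelial markers 8 were at 0 in all libraries, among them CDH1, KRT18 and KRT19, and 4 were tested. Only the membrane serine protease gene ST14 rose (39.7 ± 1.22 to 58.8 ± 14.4 CPM, adjusted p = 7.35e-04). The summed epithelial level was 60.4 to 78.6 CPM in NT control and 83.1 to 90.8 CPM in IKZF1-ko. Of 22 neuron markers 12 were at 0 in all libraries, among them SYT1, SNAP25, RBFOX3, MAP2 and STMN2. DLG4, a synaptic scaffold gene (log2 fold change 0.47), the enolase gene ENO2 (0.55) and the tau gene MAPT (0.39) rose and none of the 4 tested fell. These genes followed the library sets: ENO2 was at 7.79 to 12.4 CPM in the 4 libraries and at 40.0 and 56.8 CPM in NT control 2 and IKZF1-ko 1, so its groups overlapped, and those of DLG4 and MAPT did too. For SEZ6L2, NT control 2 was at 1.07 times the mean of the other NT control libraries and IKZF1-ko 1 at 1.29 times the mean of the other IKZF1-ko libraries. The summed neuron level was 78.2 to 172 CPM in NT control and 98.8 to 213 CPM in IKZF1-ko, and its part in the levels of the 4 genes was not tested.

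Of 22 muscle markers 10 were at 0 in all libraries, MYOD1 and MYOG among them, and 5 were tested. The small heat shock protein gene HSPB7 was put on the list with its rise already known, so it is given without a test and left out of the counts. It was at 2.88, 4.98 and 2.45 CPM in NT control against 15.6, 9.45 and 9.52 CPM in IKZF1-ko. Of the other 4 tested genes 1 rose and 1 fell (1 and 0 in the 4 libraries). For this list and those below, the shares of all tested genes were 6.93% and 6.62% (7.64% and 7.10% in the 4 libraries). TNNT1, a slow skeletal troponin gene, was at 13.7, 28.3 and 15.4 CPM in NT control and 53.5, 37.9 and 32.6 CPM in IKZF1-ko, with no overlap between the groups (log2 fold change 1.13, adjusted p = 5.99e-07). The smooth muscle actin gene ACTA2 fell by 0.78 on the log2 scale (adjusted p = 0.0479), and did not pass in the 4 libraries (adjusted p = 0.107). Without HSPB7 the summed muscle level was 29.7 to 53.4 CPM in NT control and 48.5 to 72.7 CPM in IKZF1-ko. Of 15 endothelial markers 3 were tested and 0 passed (in the 4 libraries 1, PECAM1, fell by 0.17), KDR was at 0 in all libraries, CDH5 had 1 count in all, and the summed level was 155 to 165 CPM in NT control and 150 to 157 CPM in IKZF1-ko. In the myeloid list, 18 genes were tested, 8 rose and 2 fell (7 and 3 in the 4 libraries), with a median of 0.14. The neutrophil protease genes ELANE (log2 fold change 0.77) and CTSG (0.60) rose, and the lysozyme gene LYZ (-0.36) and the granulocyte transcription factor gene CEBPE (-0.56) fell. The groups overlapped for ELANE (199 CPM in NT control 2, above the 147 CPM of IKZF1-ko 3) and for LYZ (222 CPM in NT control 2, below the 246 CPM of IKZF1-ko 3).

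Of 34 tested genes within 100 kb of the 4 genes, 3 rose and 3 fell, beside 6.93% and 6.62% of all tested genes, and 5 and 3 did in the 4 libraries. Within 100 kb of CASKIN2, 5 of 9 annotated genes were tested and 1 rose, the myosin gene MYO15B (24.4 ± 20.4 to 31.6 ± 21.5 CPM with overlapping groups, adjusted p = 0.00465). LLGL2, a cell polarity gene, rose in the 4 libraries (log2 fold change 0.52, adjusted p = 0.0283). TSEN54, a tRNA splicing gene that starts 477 bases from CASKIN2 on the opposite strand, did not pass (22.1 ± 0.840 and 24.1 ± 5.45 CPM, adjusted p = 0.544), nor did GRB2 or TMEM94. Near SEZ6L2, 13 of 23 genes were tested and 1 rose, ASPHD1, which was named after its values were seen. It starts 828 bases from SEZ6L2 on the opposite strand. ASPHD1 was at 9.84, 8.94 and 9.36 CPM in NT control and 16, 16.8 and 16.6 CPM in IKZF1-ko, with no overlap (log2 fold change 0.81, SE 0.11, adjusted p = 7.21e-05, and 0.80 in the 4 libraries), and 333 of its exon bases are shared with the opposite strand. The abundant neighbours MAZ, KIF22, TMEM219 and TAOK2 did not pass.

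Near CALHM2, 4 of 12 genes were tested and 1 fell, the ATP synthase subunit gene ATP5MK (log2 fold change -0.31, adjusted p = 0.00181), while PDCD11, PCGF6 and TAF5 did not pass. Near CLDN7, 12 of 26 were tested, 1 rose and 2 fell. DLG4, of the neuron list, rose, and the translation factor gene EIF5A (-0.34, adjusted p = 4.50e-04) and PHF23 (-0.22, adjusted p = 0.0289) fell. The groups overlapped for DLG4, EIF5A and PHF23. In the 4 libraries ACAP1 rose as well (0.33). ELP5, which shares exon bases with CLDN7, had mean levels of 65.3 ± 6.53 CPM (NT control) and 57.3 ± 8.18 CPM (IKZF1-ko) and did not pass (-0.19, adjusted p = 0.0578). Its mean was lower in IKZF1-ko, where that of CLDN7 was higher, and the part of ELP5 reads in the CLDN7 counts was not tested. ACADVL and DVL2 did not pass. LLGL2, DLG4 and PHF23 were named here after their values were seen.

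**Figure D4:**
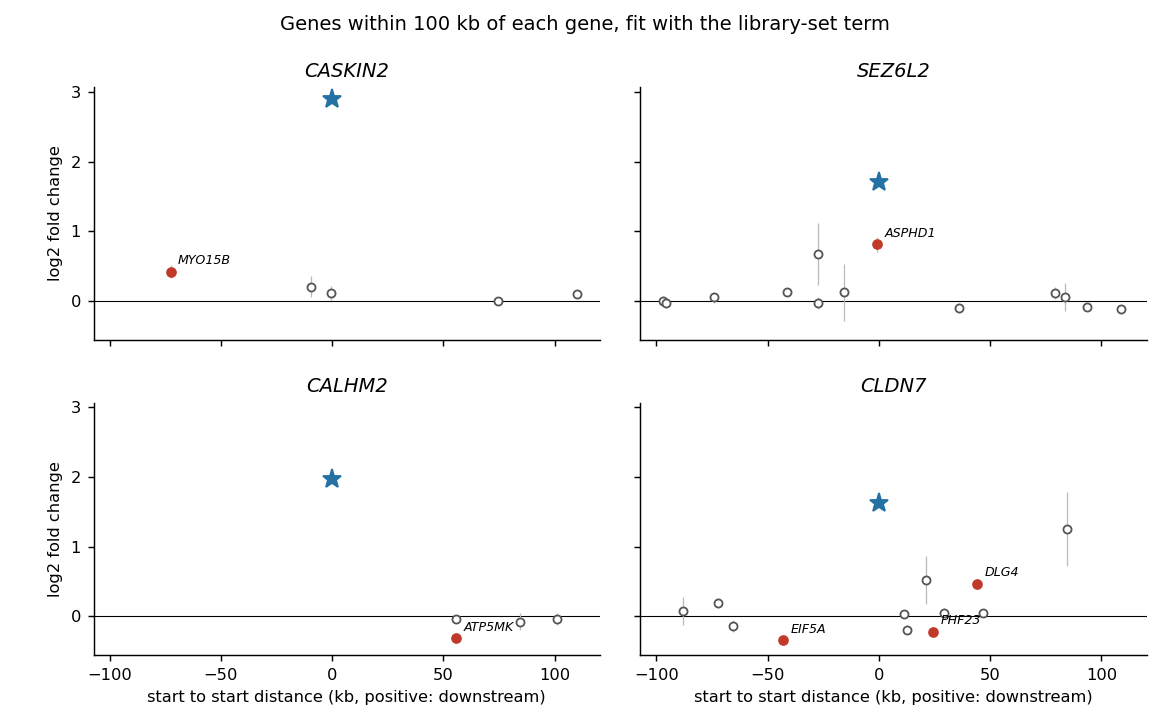
Log2 fold change, IKZF1-ko over NT control, from the fit with the library-set term, against the distance between gene starts in kb along the strand of the named gene, for tested genes within 100 kb of CASKIN2, SEZ6L2, CALHM2 and CLDN7 (blue stars). Red points passed an edgeR adjusted p of 0.05, white points did not, and bars are standard errors; ASPHD1 (0.81) is the only called gene within 1 kb of a star.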

How the data were processed

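The deposited table holds whole-number read counts per Ensembl gene for 6 libraries, used as the authors gave them, and has 0 columns of other samples. Per the labels' protocols, RNA was extracted with an RNeasy kit and libraries came from a stranded mRNA kit. The submitters' processing notes name Trimmomatic and STAR, with no version, and the build GRCh38. For the counter, its strand setting and the annotation, nothing is stated in the sources used here. Of 58233 identifiers, 57895 matched GENCODE release 29, which gave positions, and 57392 had a symbol.

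Genes were filtered with filterByExpr by group, which kept 13028 genes (12951 in the 4 libraries) with 99.9% of counts, and scaled by TMM. EdgeR 4.0.16 (R 4.3.3) ran quasi-likelihood tests, two-sided, with Benjamini-Hochberg adjustment over all tested genes and a threshold of 0.05. DESeq2 1.42.0 and limma-voom (limma 3.58.1) were alternatives, with RLE or library-size scaling, no filter, another prior count, the replicate number as a block and each library left out. The tests were checked on simulated counts. The members and the 9 lists were chosen with earlier results of these data known. Named besides the 4 genes were list members past the threshold in either fit with sets (up to 4 by lowest adjusted p), their paralogs, EPCAM and PTPRF, up to 4 neighbours by highest CPM, and the nearest profiles by correlation among genes of at least 1 CPM. Other defining markers at or near 0 are named too, with CASK, chosen after their values were seen. Replicate pairs gave a chi-square of 2.29 to 63.4 per degree of freedom, so each library counts as 1 sample. Exon bases are shared on the same strand by APBA1, CLDN12, F11R, LRRC8D, TCEAL1 and TMEM94, on both strands by CTSD, CROCC, ATP5MK, NUDT3, ZNF497 and MAZ, and on the opposite strand by BACE1, ABI2, DLG4, MAPT, CR1, ACTA2, EIF5A, WLS, CTNNA1, CACNA2D3, LYZ, SEPTIN8, RPE, LRRC8B, CASK, KIF22, ASPHD1, ACADVL, ELP5 and TAF5, so these values are uncertain. Figures were drawn with matplotlib 3.10.9.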

Additional observations from a re-analysis of the deposited data

How the results depend on the processing

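The log2 fold changes of CASKIN2, SEZ6L2, CALHM2 and CLDN7 on group alone stayed within the replicate spread under every alternative compared. Those of limma-voom were not compared. All stayed positive, the direction by which the genes were chosen. In the 4 libraries, leaving out 1 library gave 2.55 to 2.83 for CASKIN2 and 1.13 to 3.84 for CLDN7, where the arm left with 1 library has no spread of its own. Counts of called genes moved more. On group alone edgeR called 0 genes, against 8 without the filter on low counts, 71 with DESeq2 and 1 with limma-voom. With the library-set term it called 1765, against 1159 with DESeq2 and 811 to 1943 with 1 library left out (948 without NT control 1 and 811 without IKZF1-ko 3). In the 4 libraries it called 1908, against 825 with DESeq2 and 1339 to 1501 with 1 library left out. Deviations from the group means correlated at -0.655, -0.689 and 0.588 between the libraries of replicates 1, 2 and 3. The library sets are still in these values, and replicates 1 and 2 each join a library that stands apart with a library of the other set. The values therefore cannot show whether the replicate number pairs the libraries. As a block, the replicate number gave 2942 calls with the library-set term, in a fit with nearly as many terms as libraries. On group alone the block gave 0 calls, and log2 fold changes of 2.94, 1.69, 1.97 and 1.72 for the 4 genes. The low counts of CASKIN2 and CLDN7 in NT control (40 and 35 over the group) limit how well their ratios are known.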
